A study of Mus musculus with 24 samples.

Results

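The potassium channel genes of the hippocampus were followed in adult mice with and without CBP (CREB binding protein, encoded by Crebbp). They were taken as the rows of the count table whose symbol starts with Kcn, which covers pore-forming and accessory subunits, without Kcnj13, the choroid plexus channel, and without antisense RNAs. Of the 99 such rows among 55471 genes, 72 protein-coding genes reached a mean of 1 CPM (the counts of a gene scaled to a common library total) over the 12 mice and form the set described here. Another 21 genes lay below that level and 5 were antisense RNAs. The members nearest above the limit were Kcnj14 at 1.08 CPM and Kcna5 at 1.21 CPM, and the genes nearest below it were Kcnrg at 0.959 CPM and Kcne2 at 0.883 CPM. All 72 members passed the expression filter in every fit.

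The data are RNA-seq counts from the hippocampus of 12 female mice aged 3 to 6 months on a background labelled C57BL/6 and given as C57BL/6J in the study's methods, with 3 mice in each of 4 groups. CBP-ifKOs carry floxed Crebbp alleles and the Camk2a-creERT2 transgene, whose promoter is active in excitatory neurons of the forebrain, and after tamoxifen they make a truncated CBP. Their control littermates lack creERT2 and received tamoxifen too, so loss of CBP and presence of the transgene cannot be told apart in these groups. Both genotypes were housed in standard cages (SC) or in environmental enrichment (EE), which gives the groups Control SC, CBP-ifKO SC, Control EE and CBP-ifKO EE. Whole hippocampal tissue was used, which keeps interneurons, glia and vessels in which the driver is not expected to act, and in such samples fewer cells of a type and less RNA per cell cannot be told apart.

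Potassium channels let potassium leave the cell and thereby set the resting potential, shape the action potential and limit repetitive firing. Voltage-gated (Kv) subunits form tetramers whose gating is tuned by cytosolic accessory proteins, inward rectifiers (Kir) and tandem pore domain channels (K2P) govern the resting membrane, and calcium-activated channels (SK and BK) link spikes to afterhyperpolarization. In hippocampal pyramidal cells, the A-type current of Kv4 with its KChIP partners acts in dendrites, and the M current of the KCNQ subunits restrains bursts.

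Crebbp itself, which checks the labels, ranged from 70.0 to 80.2 CPM in Control SC and from 51.2 to 52.1 CPM in CBP-ifKO SC, and from 68.1 to 74.3 CPM in Control EE against 46.0 to 49.1 CPM in CBP-ifKO EE. The groups did not overlap in either housing. The libraries held 26874015 to 27971488 counts in controls and 28582210 to 37448388 in CBP-ifKOs. Every nonzero count of the CBP-ifKO libraries was even, whereas 54.0% to 55.1% of those of the controls were odd, so a difference in processing runs along with genotype. The counts below were repeated with the CBP-ifKO counts halved. Halving leaves every CPM unchanged, so this repeat cannot show whether the difference in processing affected levels. The summed CPM of 5 excitatory neuron markers overlapped between genotypes (6123 to 6540 in Control SC, 6246 to 6615 in CBP-ifKO SC, 6273 to 6830 in Control EE and 5906 to 6630 in CBP-ifKO EE). All 5 were detected. Camk2a, whose promoter drives the transgene, held most of that sum, and single markers differed: Nrgn was lower in CBP-ifKOs without overlap in both housings (683 to 802 against 539 to 604 CPM in SC, 756 to 893 against 531 to 592 CPM in EE), and Neurod6 in SC (229.8 to 250.2 against 207 to 220.5 CPM). Their part in the results below was not tested. Markers of oligodendrocyte precursors summed to 95.02 to 112 CPM in Control SC and to 76.1 to 88.5 CPM in CBP-ifKO SC, and those of endothelial cells and pericytes to 284 to 302 CPM and 243 to 270.5 CPM, without overlap. Their part in the SC results was not tested. The 5 choroid plexus markers summed to 1221 CPM in Control EE replicate 1 and to between 34.0 and 64.2 CPM in the other libraries, with 46.2 to 51.9 CPM in Control SC and 35.8 to 39.5 CPM in CBP-ifKO SC.

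Transcript levels, given as CPM per kilobase of gene model so that genes can be compared, spanned a wide range. Kcnab2, an accessory beta subunit of Kv1 channels, measured 89.2 CPM per kb, Kcnip2 57.6, Kcnj3 41.3 and Kcnj10 34.4. Kcnj3 encodes a subunit of the G-protein-gated rectifier, and Kcnj10 the main rectifier of astrocytes. Kcnd2, the pore of the dendritic A-type channel, stood at 30.4, and among the leading members of other groups were the K2P gene Kcnk1 at 28.4, the electrically silent subunit Kcnf1 at 18.1, Kcnh3 at 17.1, the axonal channel Kcna2 at 16.03 and the BK pore Kcnma1 at 14.5. The sodium-activated Kcnt1 led its group at 8.14 and the SK gene Kcnn2 at 5.77, while Kcne1l (2.35) and Kcnu1 (1.15) led the 2 groups with the lowest totals.

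Together the members took 0.579% ± 0.015 (SD, n = 3) of the counts in Control SC, 0.524% ± 0.00819 in CBP-ifKO SC, 0.582% ± 0.011 in Control EE and 0.517% ± 0.015 in CBP-ifKO EE. The 6 control libraries lay between 0.571% and 0.597% and the 6 CBP-ifKO libraries between 0.506% and 0.535%, without overlap, whereas the housings overlapped within each genotype.

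The potassium channel genes that passed the test were all lower in CBP-ifKOs. In the SC-housed mice, 16 of the 72 members (22.2%) fell and none rose in edgeR's quasi-likelihood test at an adjusted p below 0.05, against 4.02% of all 17532 genes tested that fell and 1.51% that rose. In the EE-housed mice, which share no library with the SC comparison, 13 members (18.1%) fell and none rose, against 3.53% and 1.03% of 17625 genes. The genes that fell in both housings include Kcnip3, Kcnip2, Kcnh3, Kcnj4 and Kcnq3. At an unadjusted p below 0.05, 30 members in SC and 31 in EE differed (20.5% and 19.6% of all genes). By CPM alone, all 3 CBP-ifKOs lay below all 3 controls for 20 members in SC and 19 in EE (9.59% and 8.4% of all genes), and above them for 4 and 3 (19.6% and 22% of all genes).

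The median log2 fold change of the members was -0.15 in SC and -0.19 in EE, next to -0.00 and 0.01 over all genes. Values below 0 were found for 60 of 72 members in SC (50.3% of all genes) and for 58 in EE (47% of all genes). Fold changes are computed on TMM-scaled libraries, and the TMM factors were 0.965 to 0.991 in controls and 1.01 to 1.03 in CBP-ifKOs, so that the fitted decreases are slightly larger than the ratios of the CPM printed here. Leaving out a mouse altered the SC count: 4 members fell without CBP-ifKO SC replicate 1, 6 without replicate 2, 6 without replicate 3 and 9 without Control SC replicate 3, where 337, 319, 348 and 353 of all genes fell in place of 704. Replicate 2 of both control groups stood apart from its group, with a chi-square per degree of freedom over genes of 13.5 and 9.91 to the other Control SC mice, which were 5.33 from each other, and of 14.9 and 11.7 against 8.23 in Control EE. The pairs of CBP-ifKOs lay between 2.69 and 5.95. Without Control SC replicate 2, all 16 calls were kept among 18, of which 17 were lower and 1 higher, and 1140 of all genes fell. In EE, 6 fell without Control EE replicate 3 and 6 without CBP-ifKO EE replicate 3, where 249 and 241 of all genes fell in place of 623. Without Control EE replicate 2, 11 of the 13 calls were kept among 16, and 735 of all genes fell.

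**Figure D1:**
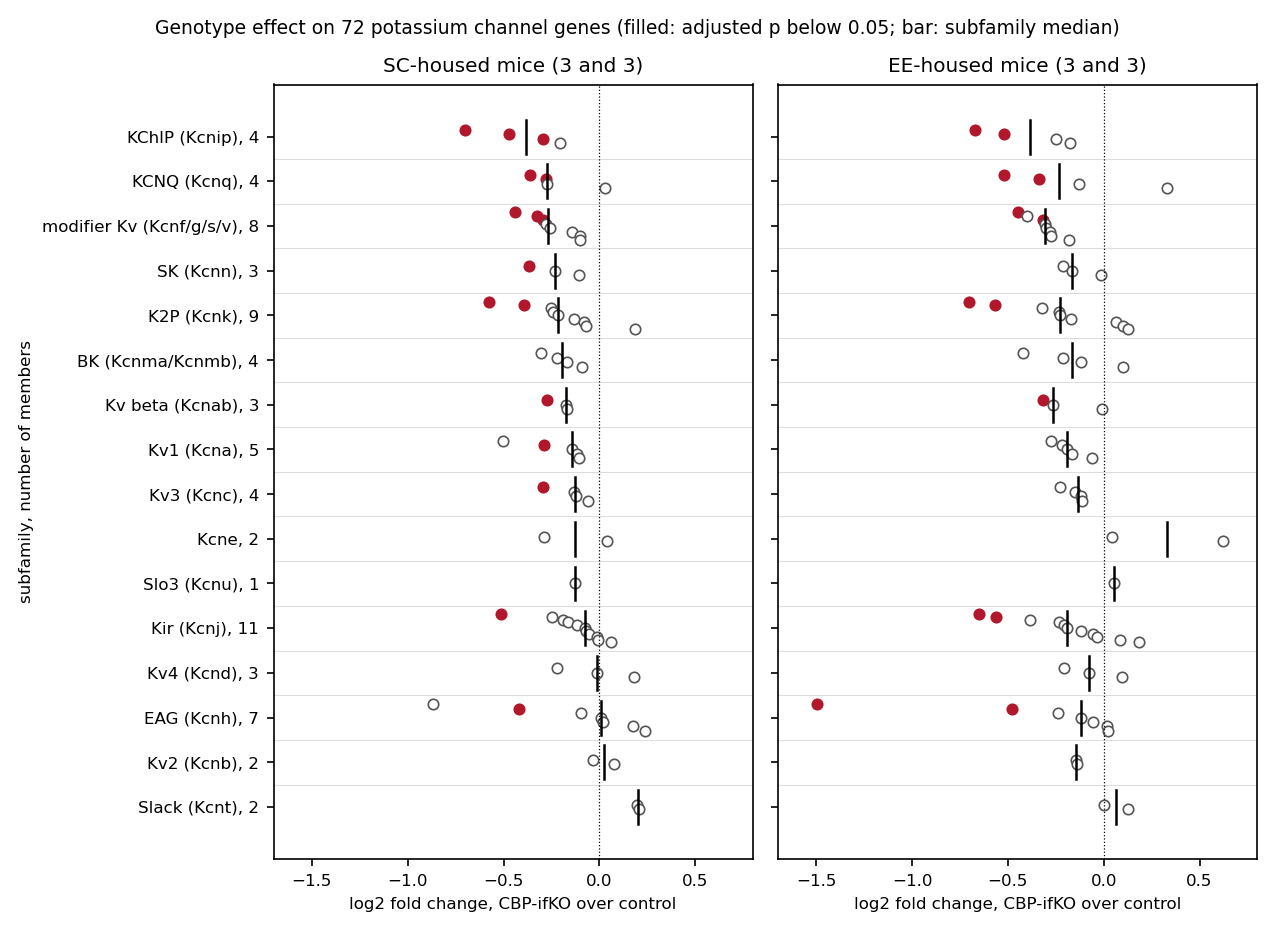
Fitted log2 fold change (CBP-ifKO over control) of the 72 members by subfamily, in the SC-housed mice on the left and the EE-housed mice on the right, with filled points for an adjusted p below 0.05 and bars for subfamily medians. All filled points, 16 in SC and 13 in EE, lie below 0, and the KChIP group has the lowest median in both panels.

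The fall was shared between the housings. Of the 18 members called in either comparison, 11 fell in both (2.35% of all genes did), 5 in SC alone and 2 in EE alone, and all 18 had a fold change below 0 in both. The genotype by housing interaction, which tests whether the genotype effect differed between housings, called no member and no gene in edgeR (unadjusted p below 0.05 for 1 member, 3.15% of all genes, and 0 members called with DESeq2), and its smallest adjusted p among the members was 0.9998, so that no call is shown to be particular to a housing. In 12 members (16.7%), all of them called, each of the 6 CBP-ifKOs lay below each of the 6 controls, as did 3.55% of the 15009 genes with a mean of 1 CPM. In 1 member, Kcnd1, each CBP-ifKO lay above each control in CPM without TMM scaling (9.37% of genes). Kcnd1, a Kv4 pore, measured 15.3 to 16.3 CPM in the controls and 16.6 to 20.2 CPM in the CBP-ifKOs, and its genotype effect averaged over housings did not pass the test (log2 fold change 0.14, SE 0.061, adjusted p = 0.148).

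**Figure D2:**
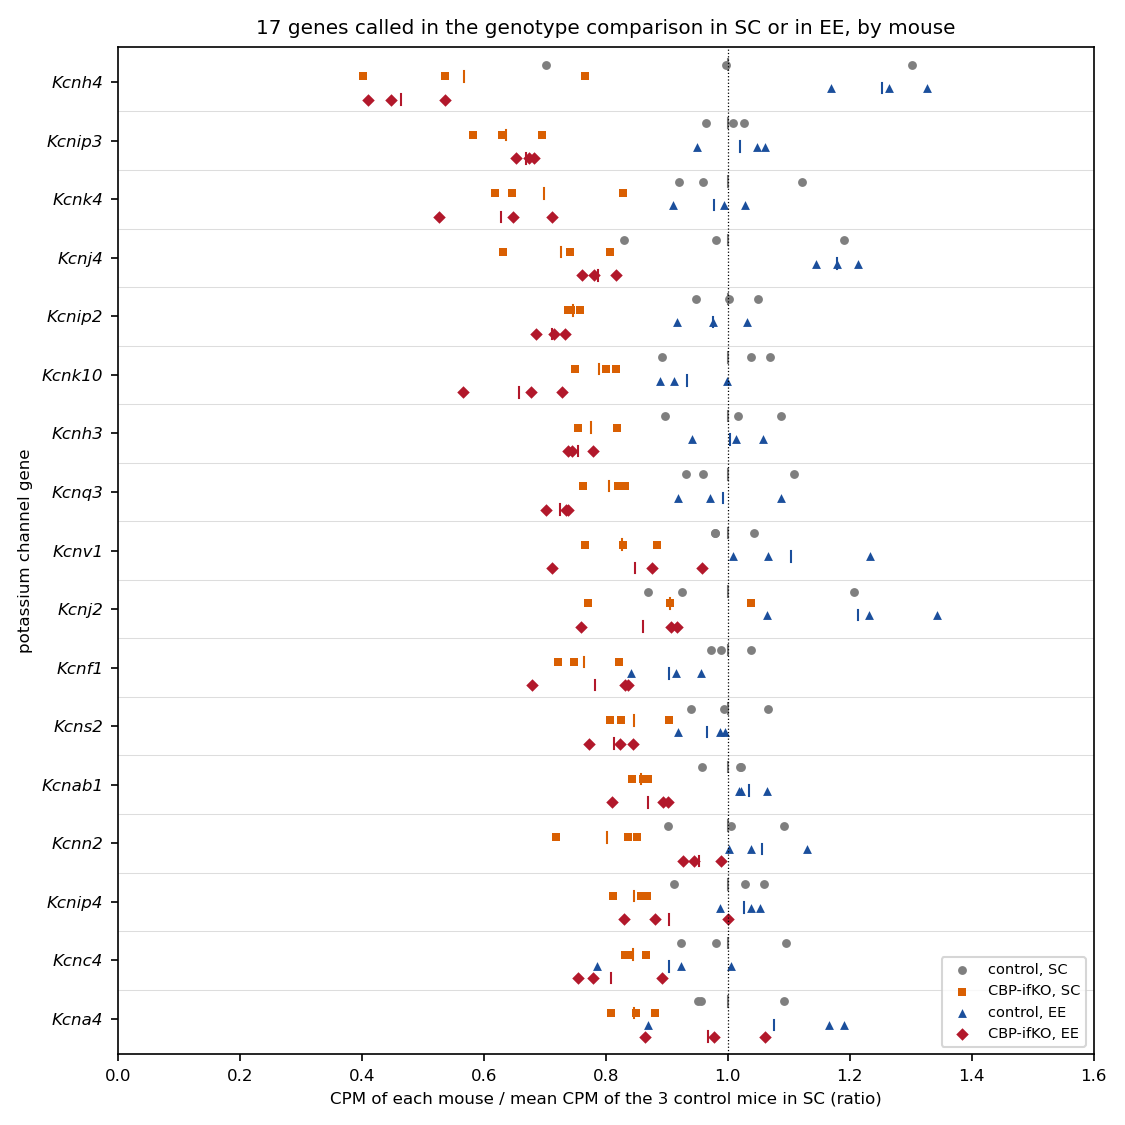
CPM of each mouse divided by the mean of the 3 control mice in SC, for 17 genes called in SC or in EE, with 1 point per mouse and short bars for the mean of each group of 3. In 11 of the 17 genes shown every CBP-ifKO lies to the left of every control.

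The KChIPs, calcium-binding proteins that bind the Kv4 channel and regulate its surface level and inactivation, formed the subfamily with the lowest median. Of its 4 members, 3 fell in SC (median log2 fold change -0.38) and 2 in EE (median -0.39). Kcnip3, which encodes KChIP3, a protein also described as the transcriptional repressor DREAM, had the smallest p-value of all members in both housings. Kcnip3 measured 103, 96.5 and 101 CPM in Control SC and 69.6, 58.2 and 63.0 CPM in CBP-ifKO SC. In EE it measured 106, 94.999 and 105 CPM in controls and 68.3, 67.5 and 65.3 CPM in CBP-ifKOs. Every CBP-ifKO was thus far below the lowest control. The log2 fold change was -0.70 (SE 0.067, adjusted p = 1.66e-04, edgeR) in SC, a decrease of 38.6%, and -0.67 (SE 0.061, adjusted p = 2.72e-04) in EE.

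Kcnip2, the most counted KChIP per length, measured 247, 234 and 259 CPM in Control SC against 182, 187 and 183 CPM in CBP-ifKO SC. In EE the values were 226, 241 and 255 CPM in controls and 181, 177 and 169 CPM in CBP-ifKOs. The groups were apart in both housings, with little spread among CBP-ifKOs, and the log2 fold changes were -0.47 (SE 0.052, adjusted p = 5.22e-04, edgeR) and -0.52 (SE 0.065, adjusted p = 0.00150). Kcnip4 fell in SC from 71.5, 61.5 and 69.3 CPM to 57.8, 58.6 and 54.8 CPM (log2 fold change -0.29, SE 0.067, adjusted p = 0.0274, edgeR). In EE it measured 71.0, 66.6 and 70.1 CPM in controls and 56.0, 59.4 and 67.5 CPM in CBP-ifKOs, where CBP-ifKO replicate 3 reached into the control range and the difference did not pass (-0.25, adjusted p = 0.0829). Its exons overlap genes on the other strand. Kcnip1 passed in neither housing (-0.21 and -0.18).

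The Kv4 pores that KChIPs bind did not pass the test in either housing. Kcnd2 had a log2 fold change of -0.01 in SC and -0.08 in EE, with group means of 152 CPM in Control SC, 156 CPM in CBP-ifKO SC, 160.2 CPM in Control EE and 159 CPM in CBP-ifKO EE. Kcnd3 stood at -0.22 and -0.21 and Kcnd1 at 0.18 and 0.10. Whether the KChIPs differed from the Kv4 genes in their genotype effect was not tested. Summed per kilobase over the 4 genes, KChIP transcripts ranged from 111 to 122 in the controls of both housings and from 85.8 to 88.4 in the CBP-ifKOs.

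Over the 12 mice, the members whose log2 CPM followed Kcnip3 most closely were Kcnh3 (Pearson r = 0.953), Kcnip2 (0.932) and Kcnab1 (0.890). The 12 points share the genotype split and the library totals, and these values are descriptive.

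The KCNQ subunits carry the M current, which muscarinic receptors close. Kcnq3, which assembles into it, fell in both housings. Kcnq3 measured 216, 257 and 222 CPM in Control SC and 176, 189.9 and 192 CPM in CBP-ifKO SC, then 213, 252 and 225 CPM in Control EE and 163, 171 and 170.2 CPM in CBP-ifKO EE. All CBP-ifKOs lay below all controls. The log2 fold changes were -0.36 (SE 0.070, adjusted p = 0.0118, edgeR) and -0.52 (SE 0.073, adjusted p = 0.00312). Kcnq5 did not pass, with values of -0.27 in SC and -0.13 in EE.

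The modifier subunits Kcnf1, Kcng1, Kcng2, Kcng4, Kcns1, Kcns2, Kcns3 and Kcnv1 form no current alone and alter Kv2 channels after assembly with them. All 8 had values below 0 in both housings, with 3 that fell in SC (median -0.27) and 2 in EE (median -0.30). Kcnf1 measured 99.5, 97.9 and 104 CPM in Control SC and 82.6, 72.6 and 75.3 CPM in CBP-ifKO SC (log2 fold change -0.44, SE 0.060, adjusted p = 0.00223, edgeR). In EE its groups were 96.2, 84.7 and 92.0 CPM and 84.1, 68.3 and 83.7 CPM. The EE groups nearly touched, and the difference did not pass there (-0.28, adjusted p = 0.0866).

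Kcnv1 measured 51.2, 54.6 and 51.2 CPM in Control SC, 40.1, 43.4 and 46.3 CPM in CBP-ifKO SC, 52.8, 64.6 and 55.8 CPM in Control EE and 50.1, 37.3 and 45.9 CPM in CBP-ifKO EE. It fell in both (-0.33, adjusted p = 0.0162, and -0.45, adjusted p = 0.0404, edgeR), with a wider spread in EE. Kcns2 measured 54.0, 50.4 and 47.6 CPM against 41.8, 45.8 and 40.9 CPM in SC, and 46.5, 50.4 and 50.1 CPM against 39.1, 42.8 and 41.7 CPM in EE. It also fell in both without overlap (-0.29, adjusted p = 0.0363, and -0.32, adjusted p = 0.0252, edgeR). The Kv2 pore Kcnb2 did not pass, with values of 0.08 in SC and -0.14 in EE. The modifier total per kilobase was 66.8 to 69.7 in Control SC, 56.3 to 58.2 in CBP-ifKO SC, 67.2 to 68.8 in Control EE and 52.4 to 60.0 in CBP-ifKO EE, again without overlap.

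Of the 7 Kcnh genes, which encode the ether-a-go-go group of Kv channels, the pair that fell within a housing belongs to its Elk branch. Kcnh3 measured 121, 99.6 and 113 CPM in Control SC, 90.9, 83.8 and 83.8 CPM in CBP-ifKO SC, 113, 105 and 118 CPM in Control EE and 82.0, 86.6 and 82.7 CPM in CBP-ifKO EE. No CBP-ifKO reached a control, and the log2 fold changes were -0.42 (SE 0.071, adjusted p = 0.00687, edgeR) and -0.48 (SE 0.061, adjusted p = 0.00182). Exons of Kcnh3 overlap Mcrs1 on the other strand, and the strand setting of the counting is not given in the sources used here, so reads of these genes cannot be told apart.

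Kcnh4 had the largest decrease of all members, at a low level. It measured 5.36, 4.73 and 5.11 CPM in Control EE and 1.66, 2.17 and 1.81 CPM in CBP-ifKO EE, with a log2 fold change of -1.49 (SE 0.17, adjusted p = 9.26e-04, edgeR), a decrease of 64.5%. In SC it measured 5.26, 4.03 and 2.84 CPM in controls and 3.10, 2.17 and 1.63 CPM in CBP-ifKOs. These groups overlapped, and the value of -0.87 did not pass (adjusted p = 0.0846). The other 5 Kcnh genes, among them Kcnh1, Kcnh2 and Kcnh7, had fold changes between -0.10 and 0.24 in SC and between -0.24 and 0.02 in EE, none past the test.

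The 9 K2P channels carry background currents. Kcnk4 and Kcnk10, which encode the lipid- and stretch-sensitive channels TRAAK and TREK-2, fell in both housings. Kcnk4 measured 13.1, 10.7 and 11.2 CPM in Control SC, 7.53, 9.66 and 7.21 CPM in CBP-ifKO SC, 11.98, 10.6 and 11.6 CPM in Control EE and 6.14, 8.30 and 7.54 CPM in CBP-ifKO EE. Its log2 fold change was -0.57 (SE 0.13, adjusted p = 0.0299, edgeR) in SC and -0.70 (SE 0.13, adjusted p = 0.0123) in EE. The gene shares exonic sequence with Catsperz on the same strand.

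Kcnk10 measured 15.5, 18.6 and 18.04 CPM in Control SC, 13.9, 14.2 and 13.0 CPM in CBP-ifKO SC, 15.4, 17.3 and 15.8 CPM in Control EE and 12.7, 11.8 and 9.84 CPM in CBP-ifKO EE. For both genes every CBP-ifKO lay below every control. The fold changes of Kcnk10 were -0.39 (adjusted p = 0.0325, edgeR) and -0.57 (adjusted p = 0.0160). Kcnk2, the third mechanosensitive gene of this kind, did not pass (-0.08 and 0.06), nor did the acid-sensitive Kcnk3 (-0.22 and -0.24) and Kcnk9 (-0.25 and -0.32).

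Of the 11 inward rectifiers, the genes that fell within a housing encode strong rectifiers of the Kir2 type. Kcnj4 measured 59.7, 58.0 and 61.5 CPM in Control EE and 41.4, 39.6 and 38.6 CPM in CBP-ifKO EE, tight and far apart (log2 fold change -0.65, SE 0.062, adjusted p = 3.26e-04, edgeR). In SC it measured 60.3, 42.1 and 49.7 CPM against 40.9, 37.6 and 32.0 CPM, where the spread was wider (-0.51, SE 0.12, adjusted p = 0.0318). Kcnj2 fell in EE, from 15.5, 18.01 and 19.6 CPM to 13.2, 13.4 and 11.1 CPM (-0.56, SE 0.11, adjusted p = 0.0192, edgeR), and overlapped in SC, at 12.7, 17.6 and 13.5 CPM against 13.2, 11.3 and 15.2 CPM (-0.19, adjusted p = 0.476). The 4 Kir2 genes had medians of -0.13 and -0.34. The other Kir2 genes, Kcnj12 at 4.48 CPM and Kcnj14 at 1.08 CPM, changed little and did not pass. Kcnj12 changed by -3.60% in SC and -7.97% in EE, and Kcnj14 by -4.79% and -2.54%.

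The other classes of Kir gave no call within either housing. The G-protein-gated genes Kcnj3, Kcnj6 and Kcnj9 had medians of -0.01 in SC and -0.21 in EE. Among the genes of the ATP-sensitive channel, Kcnj11 stood at -0.12 and -0.23 and Kcnj8 at -0.07 and -0.19. The glial genes Kcnj10 and Kcnj16 had values of -0.01 and -0.25 in SC and of 0.08 and 0.19 in EE. Beside these, the summed CPM of 5 astrocyte markers was 1463 to 1619 in Control SC, 1441 to 1471 in CBP-ifKO SC, 1417 to 1465 in Control EE and 1314 to 1403 in CBP-ifKO EE, with all 5 detected. Only the EE groups were apart, and its part in the Kir values was not tested.

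Among the Kv1 pores and their beta subunits, Kcnab1, whose product speeds inactivation of Kv1 channels, fell in both housings. It measured 187, 187 and 175 CPM in Control SC, 159, 158 and 155 CPM in CBP-ifKO SC, 187, 195 and 187 CPM in Control EE and 148, 164 and 165 CPM in CBP-ifKO EE. The groups were separate in both (-0.27, SE 0.053, adjusted p = 0.0124, and -0.32, SE 0.064, adjusted p = 0.0179, edgeR). Its exons overlap an antisense RNA gene on the other strand. Kcnab2 had values of -0.17 and -0.27, short of the threshold (adjusted p = 0.0941 in EE). Of the 5 Kv1 pores, the A-type gene Kcna4 fell in SC, from 32.0, 31.9 and 36.6 CPM to 28.5, 27.1 and 29.5 CPM (-0.29, adjusted p = 0.0389, edgeR). In EE its groups overlapped, at 29.1, 39.9 and 39.1 CPM against 35.6, 29.0 and 32.8 CPM (-0.22, adjusted p = 0.341). Kcna1, Kcna2, Kcna5 and Kcna6 did not pass in either housing.

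Kcnc4, the A-type member of the Kv3 group, fell in SC from 78.0, 65.8 and 69.9 CPM to 61.7, 59.2 and 59.6 CPM (-0.29, adjusted p = 0.0274, edgeR). In EE the groups overlapped, at 71.6, 55.9 and 65.8 CPM against 63.6, 55.5 and 53.8 CPM. The Kv3 genes Kcnc1 and Kcnc2, which support fast spiking, had values of -0.13 and -0.12 in SC and of -0.12 and -0.11 in EE, and neither passed. The 6 interneuron markers summed to 833 to 897 CPM in Control SC, 805 to 852 CPM in CBP-ifKO SC, 851 to 927 CPM in Control EE and 834 to 884 CPM in CBP-ifKO EE, overlapping in both housings. Of the single markers, Vip was higher in CBP-ifKOs without overlap in both (20.2 to 23.4 against 24.2 to 28.7 CPM in SC, 20.8 to 25.4 against 26.7 to 31.3 CPM in EE). The other markers overlapped in both housings, and their part in the Kv3 values was not tested.

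Calcium- and sodium-activated channels gave a single call within the housings. Kcnn2, the main SK subunit of the hippocampus, fell in SC from 45.4, 40.8 and 49.4 CPM to 32.5, 37.8 and 38.5 CPM (-0.37, SE 0.084, adjusted p = 0.0266, edgeR). In EE it measured 47.0, 45.3 and 51.1 CPM against 42.7, 44.7 and 41.9 CPM, apart by a small margin (-0.21, adjusted p = 0.105). Its exons overlap noncoding genes on the other strand. Kcnma1, the BK pore, had values of -0.22 and -0.21 (adjusted p = 0.0753 and 0.0774). Kcnt1 and Kcnt2 were the members with all 3 CBP-ifKOs above all 3 controls in SC besides Kcnd1 and Kcnj3. Kcnt2 measured 33.0, 35.6 and 32.6 CPM in Control SC and 39.2, 41.6 and 40.3 CPM in CBP-ifKO SC (0.21, adjusted p = 0.0912), and overlapped in EE (-0.00).

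The EAG total was 35.8 to 39.4 in Control SC, 31.4 to 34.5 in CBP-ifKO SC, 37.43 to 38.7 in Control EE and 30.8 to 33.6 in CBP-ifKO EE. It was lower in CBP-ifKOs without overlap in both housings, like the KChIP, modifier, KCNQ, SK, BK and Kv3 totals. The Slack total measured 11.8 to 13.2 in Control SC, 14.2 to 16.5 in CBP-ifKO SC, 11.5 to 12.7 in Control EE and 12.9 to 13.7 in CBP-ifKO EE. These totals carry no TMM scaling, which lowers CBP-ifKOs relative to controls, and the fitted values of Kcnt1 and Kcnt2 in EE were 0.13 and -0.00, neither past the test. The Kv4 total, at 44.3 to 46.8, 43.8 to 46.8, 43.9 to 50.2 and 43.9 to 46.7 in the same order of groups, overlapped in both housings.

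**Figure D3:**
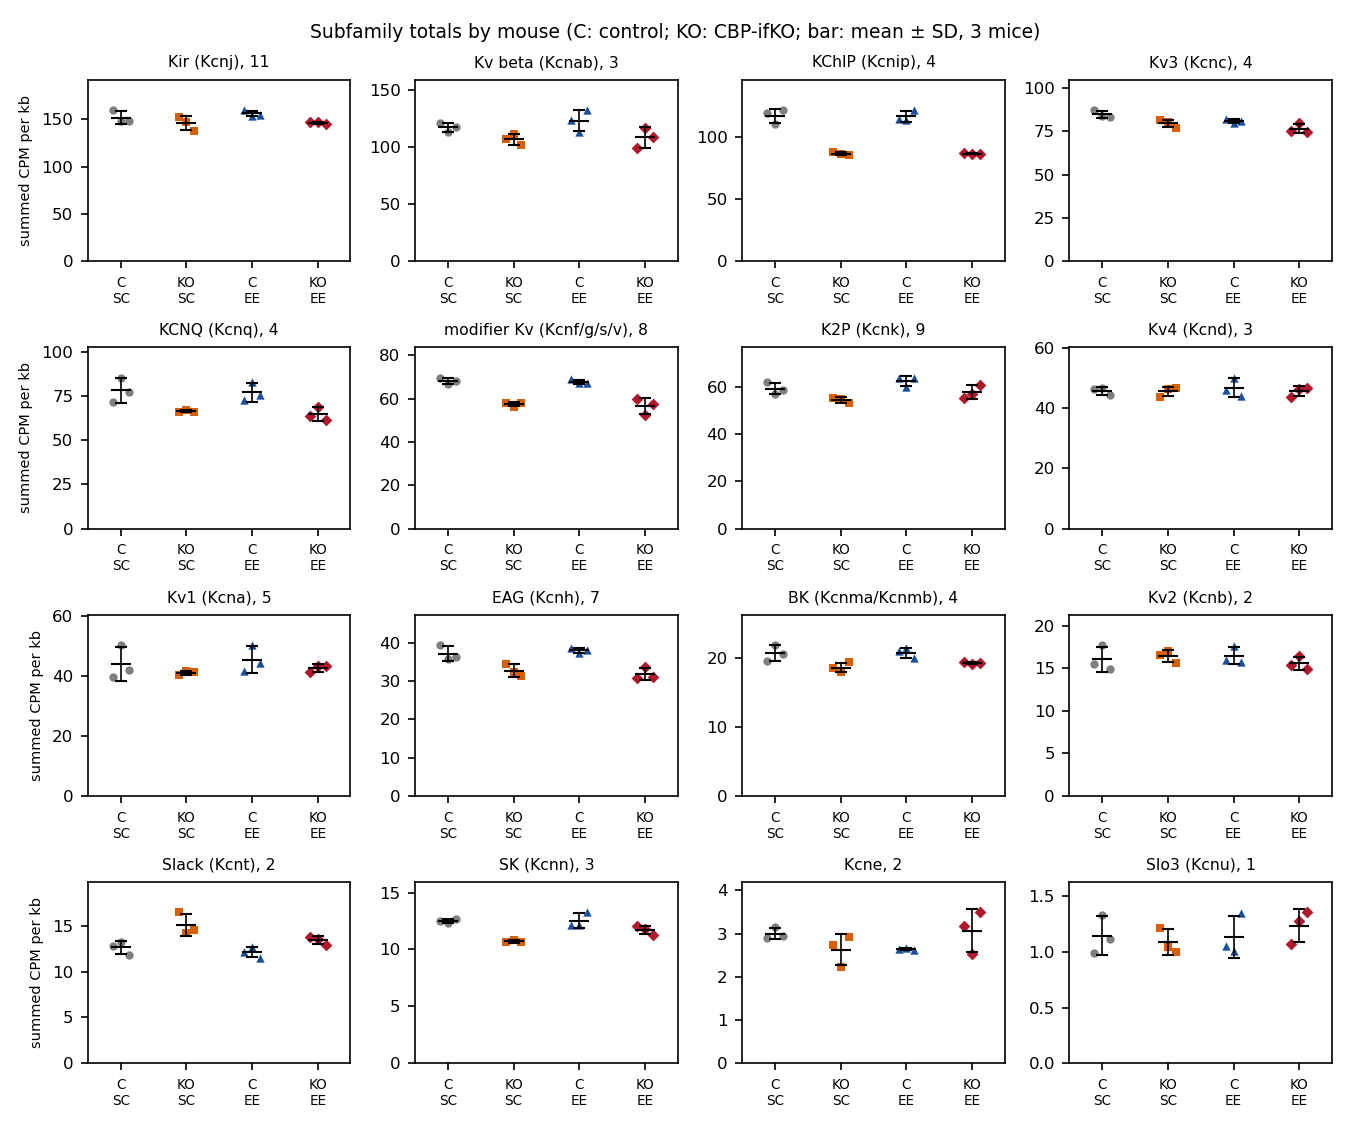
CPM per kilobase summed over the members of each of the 16 subfamilies, with 1 point per mouse and the mean ± SD of 3 mice in black, on axes that start at 0. KChIP totals of the CBP-ifKOs lie between 85.8 and 88.4 and those of the controls between 111 and 122.

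CBP is recruited to DNA by CREB, which binds the cAMP response element, so the promoters of the members were searched for that element. RefSeq promoters of GRCm38.p6, taken from 250 bases before to 50 after a gene start, were found for 50 of the 72 members and 12 of the 18 called ones. On either strand, the full element TGACGTCA was in none of the 50 (2.03% of 27025 genes with a promoter), and its core TGACG, which the full element contains, was in 12 (24%, against 23.05% of all genes). The AP-1 element TGACTCA was in 2 (4%, against 5.95%). Among the called members, Kcnj4 and Kcnc4 held the core and 1 of 3 Kcnip3 promoters held the AP-1 letters. These 3 are printed 5' to 3' on the strand of the gene, since they are the called members with any match, with the matching letters in capitals. They lie on the minus strand at chr2:127522045-127522344 (Kcnip3), chr15:79505192-79505491 (Kcnj4) and chr3:107458849-107459148 (Kcnc4). A match describes letters in this window and no binding was measured.
Kcnip3: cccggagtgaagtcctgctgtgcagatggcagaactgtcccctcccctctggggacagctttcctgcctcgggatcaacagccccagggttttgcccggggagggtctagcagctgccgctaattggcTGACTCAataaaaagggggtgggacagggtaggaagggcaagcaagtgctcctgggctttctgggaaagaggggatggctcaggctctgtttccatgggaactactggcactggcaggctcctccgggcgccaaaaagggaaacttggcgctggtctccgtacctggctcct
Kcnj4: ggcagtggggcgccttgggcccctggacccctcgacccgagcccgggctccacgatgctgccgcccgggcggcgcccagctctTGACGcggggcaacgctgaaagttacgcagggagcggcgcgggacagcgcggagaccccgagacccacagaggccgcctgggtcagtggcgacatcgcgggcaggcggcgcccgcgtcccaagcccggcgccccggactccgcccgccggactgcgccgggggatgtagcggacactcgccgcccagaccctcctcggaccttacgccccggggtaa
Kcnc4: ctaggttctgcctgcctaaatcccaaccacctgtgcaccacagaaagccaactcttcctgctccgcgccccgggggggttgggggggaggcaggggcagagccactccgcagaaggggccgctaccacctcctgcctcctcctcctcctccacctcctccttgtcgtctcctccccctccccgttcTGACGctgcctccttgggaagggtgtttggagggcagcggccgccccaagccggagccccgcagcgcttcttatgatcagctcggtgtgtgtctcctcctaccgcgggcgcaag

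With all 12 mice in 1 fit, the genotype effect averaged over housings was called for 27 members (37.5%), all lower, against 10.3% of 18251 genes that fell and 6.64% that rose. These include all 18 called in SC or EE and 9 more, namely Kcnma1 (-0.22, adjusted p = 0.00321, edgeR), Kcnab2 (-0.22, adjusted p = 0.00773), Kcng1 (-0.34, adjusted p = 0.0101), Kcnip1 (-0.20, adjusted p = 0.0178), Kcnj9, Kcnk9, Kcnc2, Kcnd3 and Kcnh1. With Kcnip1, all 4 KChIPs had fallen. These are the same libraries as in the separate comparisons and add no independent sample.

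Housing was compared within each genotype in the fit of all 12 mice. EE called no member in controls and none in CBP-ifKOs in edgeR, and DESeq2 called none either, where 0% and 0.011% of 18251 genes passed in edgeR. At an unadjusted p below 0.05 there were 7 members in controls (4.21% of all genes) and 5 in CBP-ifKOs (8.59% of all genes). The median log2 fold change of the members was 0.02 in controls and -0.00 in CBP-ifKOs. With 3 mice a group, a missed threshold does not show that levels were equal.

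The members with the smallest p in controls were Kcnj3, Kcnj16 and Kcnk1. Kcnj3 measured 204, 196 and 197 CPM in Control SC and 215, 239.9 and 215 CPM in Control EE (log2 fold change 0.18, SE 0.054, unadjusted p = 0.00503, adjusted p = 0.956, edgeR). In CBP-ifKOs it was 215, 217 and 212 CPM in SC and 225, 220.0 and 229.6 CPM in EE (0.05). Kcnk1 was 66.2, 54.0 and 60.9 CPM in Control SC and 73.8, 65.4 and 73.0 CPM in Control EE, and 58.4, 58.3 and 54.6 CPM in CBP-ifKO SC and 62.7, 63.2 and 71.4 CPM in CBP-ifKO EE. The values of Kcnk1 were higher in EE in both genotypes (0.24, unadjusted p = 0.00667, adjusted p = 0.999, and 0.19, unadjusted p = 0.0231, adjusted p = 0.508, edgeR), with overlap in controls.

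In CBP-ifKOs, Kcnn2 (0.24, unadjusted p = 0.00809, adjusted p = 0.455, edgeR) and Kcnk10 (-0.27, unadjusted p = 0.0182, adjusted p = 0.491) had the smallest p, ahead of Kcnk1. Kcnj16, an astrocytic partner of Kcnj10, had the smallest p of the interaction. It measured 23.2, 22.5 and 26.8 CPM in Control SC and 21.8, 17.6 and 18.2 CPM in Control EE, but 19.5, 20.9 and 22.8 CPM in CBP-ifKO SC and 25.2, 22.2 and 21.1 CPM in CBP-ifKO EE. The control groups did not overlap and the CBP-ifKO groups did. The interaction was 0.42 (SE 0.14, unadjusted p = 0.00723, adjusted p = 0.9998, edgeR). It was -0.38 for Kcnj2 (unadjusted p = 0.0692) and -0.63 for Kcnh4 (unadjusted p = 0.0817).

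**Figure D4:**
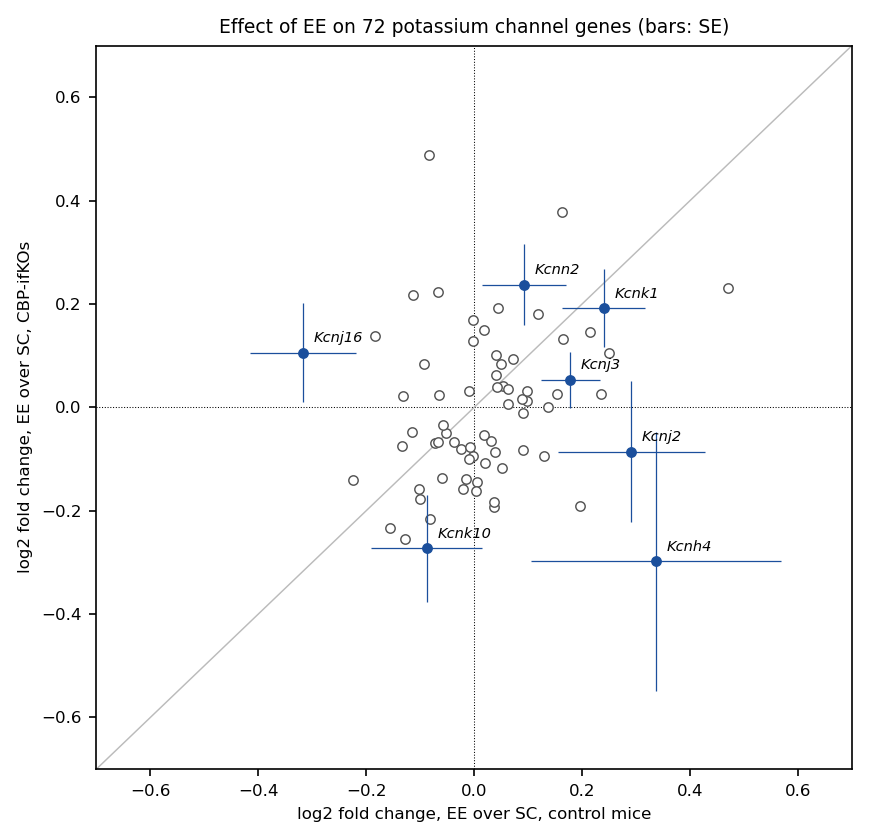
Fitted log2 fold change of EE over SC in control mice (horizontal axis) and in CBP-ifKOs (vertical axis) for the 72 members, with filled points and SE bars for the members with the smallest p in these comparisons or their interaction, and a grey line for equal effects. Most members lie close to 0 on both axes and no point passed the adjusted threshold.

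Other genes that act with potassium channels were read from a list of 31, of which 30 could be tested. In SC, 4 fell (13.3%) and 1 rose (3.33%), against 4.02% and 1.51% of all genes, and in EE 5 fell (16.7%) and none rose, against 3.53% and 1.03%. Dlg4, the PSD-95 scaffold that clusters Kv1 and Kir2 channels at synapses, fell in both (-0.32, adjusted p = 0.00374, and -0.38, adjusted p = 0.00435, edgeR), as did the calmodulin gene Calm3 (-0.28, adjusted p = 0.00740, and -0.36, adjusted p = 0.0181). Calmodulin is a constitutive subunit of KCNQ and SK channels. Calm2 fell in SC (-0.23, adjusted p = 0.0381, edgeR) and stood at -0.18 in EE (adjusted p = 0.119). Dpp6, the transmembrane partner of Kv4, fell in EE from 432, 447 and 467 CPM to 391, 402 and 392 CPM (-0.25, adjusted p = 0.0283, edgeR), with -0.16 in SC (adjusted p = 0.0695). Pex5l, the trafficking partner of HCN channels, fell in EE (-0.33, adjusted p = 0.0158, edgeR), with -0.17 in SC (adjusted p = 0.196). Its mean was 151 CPM in Control SC, 139 CPM in CBP-ifKO SC, 173 CPM in Control EE and 144 CPM in CBP-ifKO EE. The pacemaker channel gene Hcn3 rose in SC, from 14.6, 13.3 and 13.6 CPM to 19.0, 17.5 and 19.0 CPM (0.37, adjusted p = 0.0255, edgeR), and stood at 0.32 in EE (adjusted p = 0.0532).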

How the data were processed

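Hippocampal RNA of 12 mice was sequenced as 50 bp single-end reads, in 2 runs per mouse that the deposited table holds merged. The authors trimmed reads with Trim Galore 0.6.4, aligned them with STAR 2.6.1 to mm10 and counted exonic reads with Rsubread (strand setting not given in the sources used here), and they deposited raw counts per gene without normalization. FastQC 0.11.8 and DESeq2 1.30.1 are also listed in the submitters' processing notes. Gene length in the deposited table was used for CPM per kilobase. A floor of 3 counts equals 0.0801 to 0.112 CPM per library and covers counting error only. It is lowest in CBP-ifKO libraries, whose nonzero counts are all even, and does not show finer detection there. They had a count for 23843 to 25225 genes, against 25981 to 26608 in controls.

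Counts were tested with edgeR 4.0.16 in R 4.3.3 (TMM, expression filter, quasi-likelihood F test, Benjamini-Hochberg adjustment over all genes at 0.05, no fold threshold). Genotype was tested within the 6 mice of each housing, and housing, the interaction and the averaged genotype effect in all 12 mice. SE is the log2 fold change over the square root of F. Whether groups overlap was read from CPM on library totals.

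Named are members called in SC or EE, the member of highest CPM per kilobase in each subfamily, the 3 of smallest p in each housing comparison and the interaction, and those nearest the CPM limit. Some genes that this rule names are not reported here, but they stay in all counts, medians and totals. Any other gene named was chosen after its values were seen. The members and lists were chosen with earlier results of these data known. Positions and overlaps come from GENCODE vM21 on GRCm38, and 55144 of 55471 identifiers had a symbol. Procedures were tested on simulated data. Alternatives were DESeq2 1.42.0, its size factors, no filter or 1 CPM in 3 mice, halved CBP-ifKO counts, a block for the replicate number, a fit on more or fewer mice, and leaving out each mouse.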

Additional observations from a re-analysis of the deposited data

How the results depend on the processing

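Under the alternatives, no result reversed. The SC count of 16 lay between 4 and 18 when a mouse was left out, where 319 to 1140 of all genes fell in place of 704. It lay between 14 and 23 otherwise, where 688 to 1158 of all genes fell, the latter of 32372 genes without a filter on low counts. The EE count of 13 lay between 6 and 16 when a mouse was left out, was 20 with DESeq2 and 27 without a filter on low counts, where 1001 of 17625 and 1295 of 32641 genes fell in place of 623 of 17625, and lay between 14 and 18 otherwise. The averaged count of 27 lay between 23 and 27 when a mouse was left out, where 1509 to 1922 of all genes fell in place of 1871. It lay between 27 and 38 otherwise, where 1769 to 2353 of all genes fell, the latter of 35081 genes without a filter. The counts for housing and the interaction were 0 throughout. All 16 SC calls and all 13 EE calls were kept under DESeq2, its size factors, both filters, the block and halved CBP-ifKO counts. With all 12 mice in the fit, Kcna4, Kcnc4 and Kcnv1 lost their SC call. Kcnip3, Kcnip2, Kcnf1 and Kcnh3 in SC, and Kcnip3, Kcnip2, Kcnh3, Kcnh4, Kcnj4 and Kcnq3 in EE, kept their call in each of 13 alternatives. Each other call was lost without at least 1 mouse, at adjusted p from 0.0511 to 0.193 (edgeR). Some comparisons that missed the threshold passed it under alternatives. Kcnh4 in SC passed in 5 of 13 alternatives. In EE, Kcnf1 passed in 4 of 13, Kcnip4 in 3, Kcnc4 in 2 and Kcnn2 in 1.

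Same-numbered mice were not taken as pairs, since their deviations correlated by 0.074, -0.047 and 0.10 between genotypes in SC, 0.11, 0.12 and 0.034 in EE, 0.19, 0.30 and 0.034 between housings in controls and -0.043, 0.086 and -0.046 in CBP-ifKOs, and with the replicate block 18 members were called in SC, 17 in EE, 33 on average and 0 for housing and the interaction, while 780, 803 and 2023 of all genes fell in the first 3 in place of 704, 623 and 1871. The floor of 3 counts per library limits what can be seen of the least expressed genes.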

Other observations

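Of the 6 members on chromosome 15, 5 were called in both SC and EE (Kcnh3, Kcnj4, Kcnq3, Kcns2 and Kcnv1), and the sixth is Kcnk9. On that chromosome 6.78% of the genes tested fell in SC and 5.15% in EE, the shares over all chromosomes being 4.02% and 3.53%. Both members on chromosome 19, Kcnip2 and Kcnk4, fell in both housings, whereas none of the 8 members on chromosome 1 was called in SC or in EE. In the genotype effect averaged over housings, Kcnh1 and Kcnj9 on chromosome 1 and Kcnk9 on chromosome 15 were called lower too. The grouping by chromosome was noticed after the values were seen and was not tested.

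Of the genes left out of the set, Kcnj13 and Kcne2 were highest in the library with the high choroid plexus markers. Kcnj13 measured 4.21 CPM in Control EE replicate 1 and 0.908 CPM or less in the other mice. Kcne2, an accessory subunit known from the choroid plexus, measured 6.59 CPM there and 0.597 CPM or less elsewhere. Without Control EE replicate 1, 15 members were called in EE, where 561 of 18320 genes fell in place of 623 of 17625.

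Among the noncoding RNAs, Kcnq1ot1, the imprinted antisense transcript of Kcnq1, measured 27.6 ± 2.03 CPM (SD, n = 3) in Control SC, 28.2 ± 1.73 CPM in CBP-ifKO SC, 25.9 ± 2.59 CPM in Control EE and 27.0 ± 1.68 CPM in CBP-ifKO EE. Per kilobase its mean over all mice was 0.292, against 0.131 for Kcnq1, and without the strand setting reads of the overlapping genes cannot be told apart. Kcnd3os measured 1.66, 1.75 and 1.54 CPM in Control EE against 1.12, 0.868 and 1.15 CPM in CBP-ifKO EE, without overlap, and 1.45, 1.33 and 1.08 CPM against 1.21, 1.19 and 1.19 CPM in SC, with overlap. Kcnmb4os2 measured 1.71 ± 0.329 CPM in Control SC, 1.74 ± 0.249 CPM in CBP-ifKO SC, 1.76 ± 0.274 CPM in Control EE and 2.68 ± 0.619 CPM in CBP-ifKO EE. These RNAs were not tested as members.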
